A study of Homo sapiens with 8 samples.

Results

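Knockdown of the long noncoding RNA NMR was compared with its lentiviral control in KYSE70 and KYSE450, established human lines of esophageal squamous cell carcinoma. The comparison uses 4 of the 8 libraries of the series, chosen by their titles and paired by cell line, and tests the 14475 of 48162 listed genes with a mean of at least 1 FPKM over those libraries. FPKM is a read count per kilobase of gene, scaled to the size of the library. The knockdown group is 1 library of KYSE70 and 1 of KYSE450 infected with lentivirus for NMR knockdown, and the control group is 1 library of each line titled as the hairpin control. Virus was packaged in HEK 293T cells, an established human embryonic kidney line, and the lines were grown in RPMI medium with serum and used at passages 5 to 10. The other 4 libraries come from cells transfected with plasmid for NMR overexpression or its control. The labels do not say whether infected cells were selected or cloned, how many hairpins were used, or whether the libraries of a line came from separate cultures. P-values here therefore rest on how far the changes of the lines differ from each other (n = 2 lines). That spread is mostly pooled over all genes, with 1 residual degree of freedom per gene beside a prior of 32.06. A gene whose own changes differ widely between the lines can thus still be called. Within a line there is no replicate and no test.

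A short hairpin RNA is cut by the cell into a small interfering RNA, which guides an Argonaute protein to a matching transcript. Long noncoding RNAs can act in the nucleus on chromatin and transcription or in the cytoplasm on RNA and protein, so lowering one may alter genes on any chromosome. NMR was named for its methylation by NSUN2, an RNA cytosine methyltransferase, and was tied in squamous carcinoma to BPTF, the large subunit of the NURF chromatin remodeler, and to the matrix metalloproteinases MMP3 and MMP10. No listed gene carries the name NMR, so its own level is not given here, and that it was lowered rests on the labels.

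The 4 libraries held 26401805 to 37937856 reads, recovered from the FPKM values, and 13888 to 14248 genes at 1 FPKM or more. Control and knockdown had a Pearson correlation of log2(FPKM + 1) across genes of 0.9698 in KYSE70 and 0.9894 in KYSE450. Of 14 squamous epithelial markers, 11 to 14 stood at 1 FPKM or more per library, led by the keratin gene KRT5, while 2 of 10 fibroblast, at most 2 of 10 immune and at most 1 of 8 endothelial markers did. Of 12 markers of HEK 293T cells, 7 and 6 reached 1 FPKM in the KYSE70 control and knockdown and 4 and 4 in KYSE450, with summed levels of 268.3 and 254.2 FPKM and of 35.4 and 36.3 FPKM, close to equal within a line. The KYSE70 knockdown library stood apart from the others. Across 14068 genes, the Spearman correlation of its change from control was -0.478 with GC content and 0.255 with gene length, against 0.042 and 0.018 in KYSE450; genes are not independent replicates. Genes of the mitochondrial genome made up 8.63% of its summed FPKM, against 5.75% in its control and 4.63% and 4.04% in the KYSE450 control and knockdown. These values go with every KYSE70 value below, and their part in it was not tested unless a value without the GC and length trends is given.

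The changes of the lines had little in common across all genes. The log2 change, the difference of log2(FPKM + 1) between knockdown and control, had an SD across genes of 0.52 in KYSE70 and 0.31 in KYSE450. Its Pearson correlation between the lines was 0.124 and its Spearman correlation 0.114, and 52.95% of genes had the same sign in both. In KYSE70, 256 genes (1.77%) stood at least 2-fold higher and 539 (3.72%) at least 2-fold lower with knockdown. The KYSE450 counts were 82 (0.566%) and 54 (0.373%). Of these, 12 were higher in both lines, which is 4.69% of the KYSE70 genes and 14.6% of the KYSE450 genes, and 10 were lower in both, 1.86% and 18.5%. At 1.5-fold or more in both lines, 117 genes (0.808%) stood higher and 68 (0.47%) lower. Limma, fitted over all 14475 genes with cell line as the pair, called 38 genes (0.263%) at an adjusted p under 0.05, 23 higher (0.159%) and 15 lower (0.104%), and 1159 had an unadjusted p under 0.05. With the GC and length trends removed no gene was called (1009 at an unadjusted p under 0.05), and the same holds when all 8 libraries share 1 spread (1801) and when the pairing is left out (13).

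**Figure D1:**
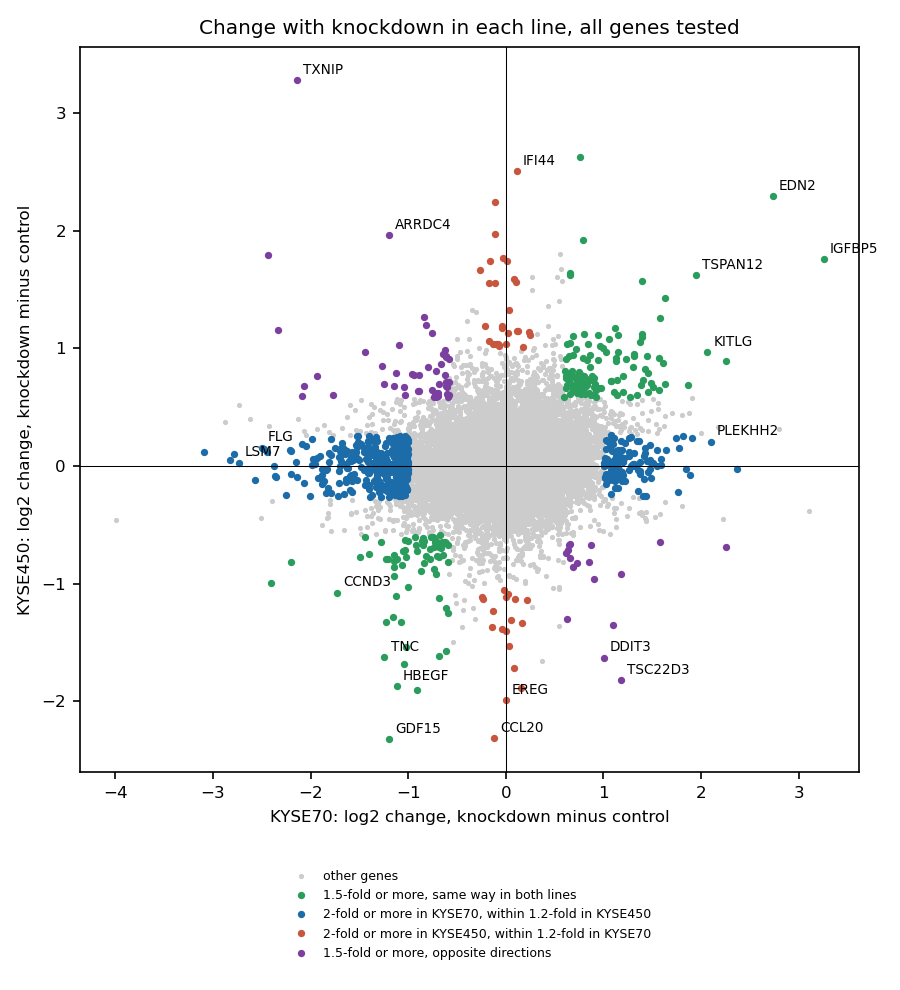
Change with knockdown in KYSE70 (horizontal) against KYSE450 (vertical), as differences of log2(FPKM + 1), with 1 point per tested gene. Colours mark genes at least 1.5-fold apart the same way in both lines, genes at least 2-fold apart in 1 line alone and genes apart in opposite directions. The colours do not mark the limma calls. The cloud is wider along the KYSE70 axis (SD 0.52) than along the KYSE450 axis (SD 0.31), with EDN2 and IGFBP5 at the upper right, GDF15 at the lower left and TXNIP at the upper left.

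EDN2 and IGFBP5 had the smallest adjusted p among the genes that rose. EDN2, which encodes the vasoconstrictor peptide endothelin 2, rose from 4.27 to 34.1 FPKM in KYSE70 and 0.674 to 7.21 in KYSE450. The knockdown library was the higher one in each line, by 7.98-fold (6.27 to 10.3) and 10.7-fold (6.45 to 18.9), where the brackets give the 95% exact binomial counting interval, here and below. The fitted change was 2.51 (SE 0.27, adjusted p 1.13e-06) on the log2(FPKM + 1) scale, where low genes appear to change less than they do. IGFBP5, an insulin-like growth factor binding protein gene, rose from 5.92 to 65.2 FPKM in KYSE70 and 0.285 to 3.36 in KYSE450, by 11.01-fold (9.92 to 12.2) and 11.8-fold (7.91 to 18.3). Its fitted change was 2.51 (SE 0.30, adjusted p 5.86e-06). The starting levels differed between the lines: the KYSE70 control lay above the KYSE450 knockdown library for IGFBP5 but below it for EDN2. KITLG, the ligand of the receptor tyrosine kinase KIT, rose from 14.5 to 63.9 FPKM in KYSE70 and 8.31 to 17.2 in KYSE450 (fitted change 1.51, SE 0.27, adjusted p 0.00492). The semaphorin gene SEMA3C, a guidance cue, also passed the test (fitted change 1.55, SE 0.33, adjusted p 0.0222), but its change was 2.79 in KYSE70, from 17.4 to 127 FPKM, and 0.31 in KYSE450, from 9.78 to 12.4 FPKM.

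Genes of the cell surface and of intracellular signaling rose as well. TSPAN12, a tetraspanin that serves as a coreceptor in Norrin and beta-catenin signaling, rose from 127 to 491 FPKM in KYSE70 and 1.86 to 7.84 in KYSE450 (fitted change 1.79, SE 0.25, adjusted p 0.000154). The folds were alike, 3.87-fold (3.73 to 4.01) and 4.21-fold (3.26 to 5.49), although KYSE70 held far more of the transcript in both groups. VAV3, a guanine nucleotide exchange factor, rose from 28.1 to 89.2 FPKM in KYSE70 and 3.67 to 11.6 in KYSE450 (fitted change 1.53, SE 0.25, adjusted p 0.0027). CDK14, a cyclin-dependent kinase of WNT signaling, rose from 4.42 to 13.3 FPKM in KYSE70 and 6.8999 to 15.9 in KYSE450 (fitted change 1.25, SE 0.26, adjusted p 0.0209). GJA1, the gap junction protein connexin 43, rose from 94.6 to 236 FPKM in KYSE70 and 28.3 to 55.7 in KYSE450, and the adapter gene PPFIBP1 from 37.6 to 99.3 FPKM in KYSE70 and 50.9 to 107 in KYSE450. Both lines thus showed the higher level in the knockdown library for each of these 5 genes. The glypican gene GPC3, a cell surface proteoglycan, rose more in KYSE450, from 11.7 to 43.2 FPKM, than in KYSE70, from 99.6 to 147 FPKM (fitted change 1.18, SE 0.27, adjusted p 0.0442). SNX10, a sorting nexin of endosomes, METTL7A, NELL2 and MSMO1, an enzyme of cholesterol synthesis, had fitted changes of 1.15, 1.19, 1.24 and 1.24 with adjusted p of 0.0411, 0.0411, 0.0171 and 0.0204. The pseudogene DNAJC19P5 was called too (4.42 to 13.3 and 0.749 to 2.81 FPKM, KYSE70 first), and its reads can be shared with its parent gene. Other genes that rose were the transcription factor gene ZNF395 (46.7 to 172 and 32.8 to 53.6 FPKM), the splicing regulator MBNL2 (5.84 to 24.6 and 15.7 to 23.8 FPKM), the carboxypeptidase gene CPA6 (6.92 to 12.7 and 0.372 to 4.203 FPKM) and AC008372.1 (2.29 to 4.58 and 0 to 5.18 FPKM). The AC008372.1 levels rest on 2 and 4 reads in KYSE70 and 0 and 5 in KYSE450, control first. Its KYSE70 counting interval, 0.287-fold to 22.1-fold, includes no change. DDX60, IFIT1, COL3A1 and COL5A1, given below, also rose. The 23 genes that rose had a median GC content of 42.4% and the 15 that fell 52.2%, against 48.5% over all genes tested.

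Among the 15 genes that fell were ligands, a cyclin and an adapter. GDF15, a cytokine gene induced by cellular stress, fell from 63.95 to 27.4 FPKM in KYSE70 and 27.3 to 4.66 in KYSE450. The control was the higher library by 2.34-fold (2.13 to 2.57) and 5.85-fold (4.82 to 7.15), and the fitted change was -1.76 (SE 0.27, adjusted p 0.000775). FGF21, a hormone of the fibroblast growth factor family, fell from 3.96 to 1.45 FPKM in KYSE70 and 5.25 to 1.15 in KYSE450 (fitted change -1.28, SE 0.26, adjusted p 0.0189). FST, which encodes the activin antagonist follistatin, fell from 6.002 to 2.74 FPKM in KYSE70 and 116 to 30.3 in KYSE450 (fitted change -1.41, SE 0.27, adjusted p 0.00854), and its KYSE450 control stood far above the other 3 libraries. TNC, the matrix glycoprotein tenascin C, fell from 20.4 to 8.05 FPKM in KYSE70 and 21.8 to 6.38 in KYSE450 (fitted change -1.44, SE 0.26, adjusted p 0.0052). Its controls were nearly equal in the lines, and both knockdown libraries lay below both controls. CCND3, a D-type cyclin gene, fell from 205 to 61.2 FPKM in KYSE70 and 43.7 to 20.2 in KYSE450 (fitted change -1.40, SE 0.25, adjusted p 0.00492). PIK3AP1, an adapter of phosphoinositide 3-kinase, fell from 19.1 to 3.37 FPKM in KYSE70 and 11.1 to 5.88 in KYSE450 (fitted change -1.51, SE 0.29, adjusted p 0.00854).

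Of the others that fell, AREG, HBEGF and MT-CYB are given below. The transcriptional repressor subunit gene DRAP1 went from 305 to 52.6 FPKM in KYSE70 and 335 to 247 in KYSE450 (fitted change -1.48, SE 0.32, adjusted p 0.0225), and the secretory protein gene PCSK1N from 76.2 to 20.01 FPKM in KYSE70 and 59.1 to 41.5 in KYSE450 (fitted change -1.19, SE 0.27, adjusted p 0.048). For both, the change in KYSE70 was the larger one, -2.51 and -1.88, against -0.44 and -0.50 in KYSE450. The noncoding genes and pseudogenes RP11-730B22.1, CTC-490G23.2, AC079781.5 and AC004057.1 fell too. RP11-730B22.1 rests on 9 and 2 reads in KYSE70 and 16 and 2 in KYSE450, control first. Its KYSE70 counting interval, 0.0234-fold to 1.07-fold, includes no change. AC004057.1 went from 26.7 to 0.739 FPKM in KYSE70 and 41.2 to 29.7 in KYSE450, so its fall was mostly in KYSE70. AC079781.5 was at 0 in the KYSE70 knockdown library, against 4.301 FPKM in its control, a level that rests on 14 reads.

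**Figure D2:**
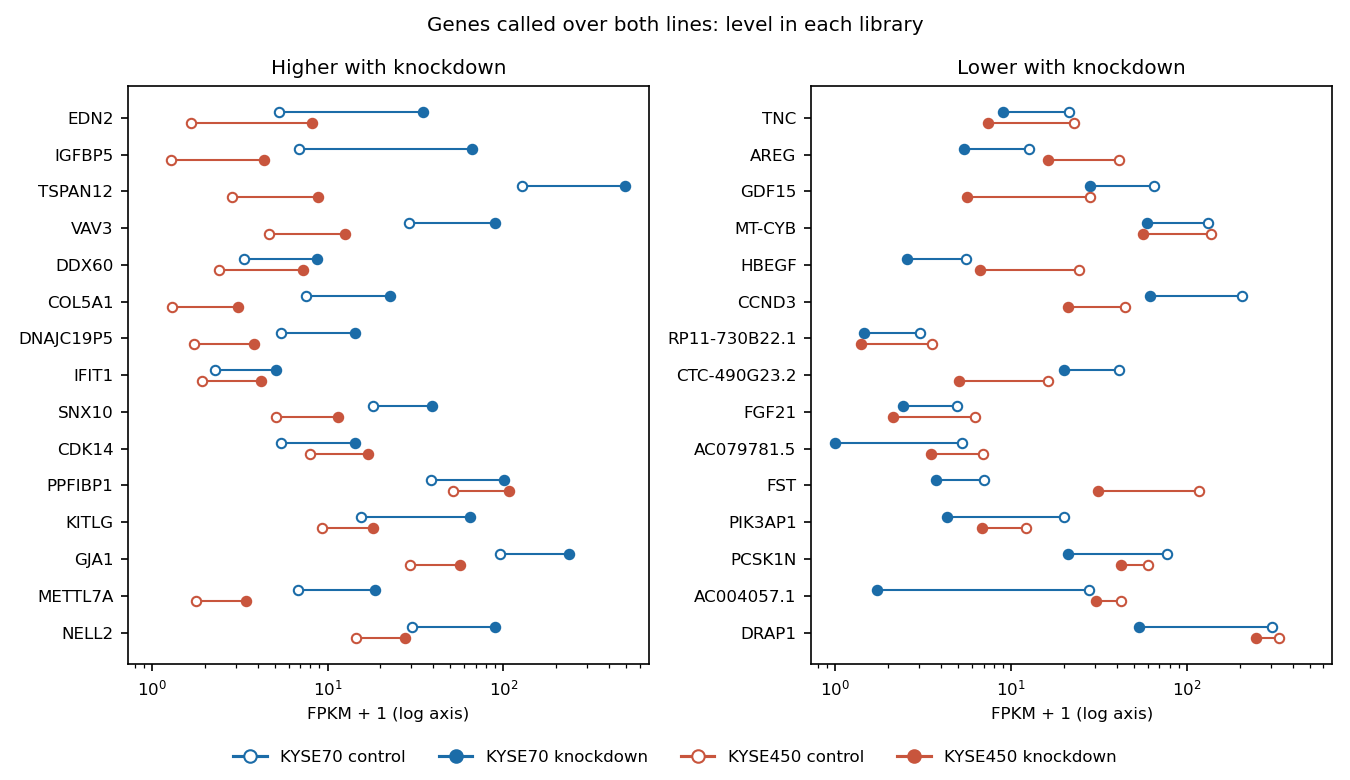
FPKM + 1 on a log axis in each of the 4 libraries for 15 genes that rose (left panel) and the 15 genes that fell (right panel) with NMR knockdown, with open symbols for controls, filled symbols for knockdown, blue for KYSE70 and red for KYSE450. For EDN2 both filled symbols lie to the right of their open ones (4.27 to 34.1 and 0.674 to 7.21 FPKM), and for GDF15 both lie to the left (63.95 to 27.4 and 27.3 to 4.66 FPKM).

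The plasmid control libraries give a second untreated level for these genes, from cells that went through transfection in place of infection. EDN2 stood at 2.63 and 10.9 FPKM there (KYSE70 first), IGFBP5 at 4.63 and 52.8 FPKM and TSPAN12 at 214 and 9.91 FPKM. In KYSE450 each of these 3 levels exceeded the knockdown level, and in KYSE70 TSPAN12 lay between control and knockdown. The KYSE450 plasmid control also exceeded the knockdown library for KITLG (39.6 FPKM), CDK14 (36.0), SEMA3C (26.1), GJA1 (73.9), GPC3 (159.8) and METTL7A (3.89). It lay below that library for VAV3, PPFIBP1, NELL2, CPA6, ZNF395, MSMO1, SNX10, MBNL2, DNAJC19P5 and AC008372.1. Levels of DDX60, IFIT1, COL3A1 and COL5A1 are given below. GDF15 stood at 13.9 and 1.89 FPKM, TNC at 11.3 and 1.28 FPKM, FGF21 at 0.492 and 0.0672 FPKM and FST at 3.19 and 30.002 FPKM. For GDF15 and FGF21 the plasmid controls lay below the knockdown libraries in both lines (27.4 and 4.66, and 1.45 and 1.15 FPKM). FST lay between lentiviral control and knockdown in KYSE70 and near the knockdown level in KYSE450 (30.3 FPKM). TNC lay between lentiviral control and knockdown in KYSE70 and below the knockdown library in KYSE450. CCND3 stood at 230.2 and 36.4 FPKM, close to the lentiviral control in both lines. Where the controls of the arms differ this much, a response to knockdown and a deviation of the lentiviral control cannot be told apart, because each group has 1 library per line.

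Interferon-stimulated genes form the antiviral program that cells switch on after interferon or viral RNA reaches them. DDX60, a helicase that aids the sensing of viral RNA, rose from 2.33 to 7.76 FPKM in KYSE70 and 1.43 to 6.25 in KYSE450 (fitted change 1.49, SE 0.26, adjusted p 0.00492). IFIT1, which binds viral RNA and blocks its translation, rose from 1.3003 to 4.098 FPKM in KYSE70 and 0.939 to 3.21 in KYSE450 (fitted change 1.13, SE 0.26, adjusted p 0.0442). In each line the knockdown library was the higher one for both genes, although every level was low. Their promoters are shown because both hold 2 copies of the interferon response motif, a pair of GAAA with any 2 bases between, read on either strand. Each window is the 250 bases before the gene start, from RefSeq on GRCh38.p14 (chr10:89392373-89392622, plus strand, and chr4:168318753-168319002, minus strand), 5′ to 3′ on the gene's strand, with the motif in capitals:
IFIT1: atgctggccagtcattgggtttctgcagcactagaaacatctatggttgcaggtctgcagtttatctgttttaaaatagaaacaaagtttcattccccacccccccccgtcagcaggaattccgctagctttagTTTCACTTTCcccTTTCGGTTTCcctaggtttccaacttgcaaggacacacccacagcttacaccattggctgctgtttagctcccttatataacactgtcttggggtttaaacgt
DDX60: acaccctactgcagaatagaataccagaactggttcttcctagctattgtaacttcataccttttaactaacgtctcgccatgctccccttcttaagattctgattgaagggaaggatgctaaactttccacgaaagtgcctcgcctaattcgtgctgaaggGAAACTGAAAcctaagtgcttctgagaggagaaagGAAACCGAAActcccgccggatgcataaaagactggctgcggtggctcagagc
The matches begin 116 and 103 bases before the start of IFIT1 and 88 and 53 bases before that of DDX60. Of the 30 measured interferon genes with a promoter, 17 hold the motif (56.7%), against 3.07% of all 27305 promoters of this length and 2.13% of tested genes with a promoter. The list holds known interferon-stimulated genes, so neither this share nor the split by motif given below is independent of how the list was made. A match is a description of the letters, not of binding.

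Of 48 interferon-stimulated genes on the list, 34 were measured, with a median change of 0.12 in KYSE70 and 0.29 in KYSE450, against medians near 0 over all genes. With a mean filter of 5 FPKM the KYSE70 median was -0.16. In both lines 20 of the 34 stood higher and 5 lower, where 27.2% and 25.7% of all genes did. In KYSE450, 6 (17.6%) stood at least 2-fold higher, against 0.566% of all genes, and in KYSE70 3 did (8.82%, against 1.77%). In KYSE70, 3 others, IFI35, ISG20 and USP18, stood at least 2-fold lower (8.82%, against 3.72%). The KYSE450 list held IFI44, from 1.25 to 11.8 FPKM, IFITM1, from 2.69 to 11.3 FPKM, IFI6, from 3.71 to 8.49 FPKM, and BST2, from 0.479 to 2.72 FPKM, besides DDX60 and IFIT1. In KYSE70, IFI44 was at 0 and 0.0795 FPKM and IFITM1 at 25.6 and 22.9 FPKM, so IFI44 was near absent there and IFITM1 stood slightly lower. ISG15, a ubiquitin-like modifier, stood lower in KYSE70 and higher in KYSE450 (7.44 to 3.46 and 5.11 to 7.02 FPKM, KYSE70 first). Members with the motif had medians of 0.11 and 0.43 and those without it 0.24 and 0.07, in KYSE70 and KYSE450. The plasmid controls held IFI44 at 0.0668 and 9.62 FPKM, DDX60 at 1.68 and 6.43 FPKM and IFIT1 at 0.765 and 5.75 FPKM, so in KYSE450 these 3 were near or above the knockdown level there. The 16 measured sensors of double-stranded RNA and cytosolic DNA, which act upstream, had medians of 0.14 and 0.07 (0.05 and 0.03 without the GC and length trends).

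Of the EGF receptor family, 2 ligands fell in both lines and the receptor was not called. These ligands are cut from the cell surface and bind EGFR or its relatives, and receptor activity runs through the ERK kinases. AREG, the gene of amphiregulin, fell from 11.7 to 4.39 FPKM in KYSE70 and 40.1 to 15.4 in KYSE450 (fitted change -1.28, SE 0.26, adjusted p 0.016). HBEGF, the gene of heparin-binding EGF-like growth factor, fell from 4.58 to 1.57 FPKM in KYSE70 and 23.4 to 5.69 in KYSE450 (fitted change -1.49, SE 0.27, adjusted p 0.0052). In each line the control was the higher library for both, by 2.66-fold (2.13 to 3.32) and 2.61-fold (2.34 to 2.91) for AREG and by 2.91-fold (2.14 to 4.01) and 4.12-fold (3.57 to 4.76) for HBEGF. EREG, the gene of epiregulin, was near absent in KYSE70, at 0.0174 FPKM in both libraries, and went from 58.6 to 14.03 FPKM in KYSE450. TGFA, the gene of transforming growth factor alpha, stood lower in KYSE70 alone (99.6 to 41.7 and 17.96 to 17.03 FPKM, KYSE70 first), and the neuregulin gene NRG1 stood higher in KYSE70 and lower in KYSE450 (141 to 218 and 151 to 60.7 FPKM). EGFR stood at 141 to 268 and 532 to 713 FPKM, higher with knockdown in both lines (adjusted p 0.46). Its inhibitor LRIG1 stood lower in KYSE70 (86.2 to 18.8 and 16.3 to 15.2 FPKM) and its feedback inhibitor ERRFI1 lower in KYSE450 (33.1 to 48.8 and 98.4 to 47.2 FPKM). Of the 12 of 16 listed family members that were measured, 2 were called (against 0.263% of all genes), 4 stood at least 2-fold lower in KYSE70 (33.3%, against 3.72% of all genes) and 5 in KYSE450 (41.7%, against 0.373%). By sign 8 of the 12 stood higher in KYSE70 and 10 lower in KYSE450, with medians of 0.04 and -0.27 (0.16 and -0.26 without the GC and length trends). The plasmid controls held AREG at 4.11 and 1.54 FPKM, HBEGF at 0.835 and 0.889 FPKM and EREG at 0.0293 and 2.28 FPKM. In KYSE450 these levels lay below the knockdown level for all 3. In KYSE70 HBEGF lay below the knockdown level (1.57 FPKM) and AREG slightly below it (4.39 FPKM).

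Genes that report ERK output stood mostly lower and did not pass the test. Of 25 measured, 15 stood lower in both lines and 3 higher, where 25.7% and 27.2% of all genes did, with medians of -0.23 and -0.17. DUSP6, a phosphatase that switches ERK off, stood at 21.9 to 3.82 and 13.9 to 11.6 FPKM (KYSE70 first, adjusted p 0.0773). The transcription factor ETV5 stood at 314 to 215 and 34.97 to 11.8 FPKM (0.0824) and the feedback inhibitor SPRY4 at 19.8 to 7.84 and 2.17 to 1.16 FPKM (0.193). The early response factor EGR1 went the other way in both lines, from 12.2 to 36.8 FPKM in KYSE70 and 62.5 to 100.03 in KYSE450, and missed the threshold at an adjusted p of 0.0571. In the plasmid controls DUSP6 stood at 2.18 and 3.28 FPKM, ETV5 at 96.6 and 5.14 FPKM and SPRY4 at 2.69 and 0.452 FPKM. These levels lay below those of the knockdown libraries in both lines. EGR1 stood at 8.1 and 26.1 FPKM there, below both lentiviral libraries of each line. Of the AP-1 subunits, FOSL1 stood at 40.8 to 15.9 and 27.7 to 21.9 FPKM and FOS at 2.57 to 4.004 and 8.57 to 11.1 FPKM, and none of the 12 listed was called.

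NF-kB is the transcription factor family that turns on inflammatory cytokines and survival genes, along with its own inhibitors. None of the 30 measured members of its list (of 41) was called, but 16 stood lower in both lines and 4 higher, where 25.7% and 27.2% of all genes did. Medians were -0.28 for KYSE70 and -0.22 for KYSE450, and the KYSE70 value was -0.03 with the GC and length trends removed. At 1.5-fold or more in both lines, 6 stood lower (20.0%, against 0.47% of all genes): BCL3, BIRC3, TNFAIP2, CXCL3, IL8 and LIF. IL8, a neutrophil chemokine gene, stood at 1.51 to 0.567 and 91.01 to 29.03 FPKM (KYSE70 first, adjusted p 0.0587). LIF, a cytokine of the interleukin 6 family, stood at 10.5 to 3.0997 and 4.13 to 1.99 FPKM (0.0587). CCL20, a chemokine gene, was low in KYSE70 (0.253 and 0.152 FPKM) and in KYSE450 stood at 13.3 in the control and 1.88 with knockdown, 7.08-fold (5.12 to 10.02) lower. CXCL1 stood at 31.3 to 14.9 and 33.9 to 22.7 FPKM, CXCL2 at 0.04796 to 0 and 3.37 to 1.65 FPKM and CXCL3 at 1.76 to 0.329 and 5.63 to 3.01 FPKM. These 3 neighbouring genes are closely related in sequence, so some reads may be shared between them. NFKBIA, the inhibitor that NF-kB itself induces, differed little (90.4 to 94.6 and 196 to 180.2 FPKM). In the plasmid controls IL8 stood at 0.254 and 0.184 FPKM, LIF at 2.40 and 0.453 FPKM and CCL20 at 0.0852 and 0.0495 FPKM. These levels lay below those of the knockdown libraries in both lines. TNFAIP2 stood at 0.595 and 0.119 FPKM there, close to the knockdown level in KYSE70 (0.562) and below it in KYSE450 (2.21).

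The promoters of CXCL1, CXCL3 and CCL20 are shown because each holds 1 match to the NF-kB motif, GGG and TTTCC with any 2 bases between, searched on both strands, at the same distance from the start (chr4:73869143-73869392, plus strand, chr4:74038690-74038939, minus strand, and chr2:227813592-227813841, plus strand, RefSeq on GRCh38.p14, motif in capitals):
CXCL1: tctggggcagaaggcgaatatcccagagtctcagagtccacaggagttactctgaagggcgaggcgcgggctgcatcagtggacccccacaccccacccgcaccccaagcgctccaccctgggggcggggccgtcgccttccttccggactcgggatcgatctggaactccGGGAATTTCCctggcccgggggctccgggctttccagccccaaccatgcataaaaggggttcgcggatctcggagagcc
CXCL3: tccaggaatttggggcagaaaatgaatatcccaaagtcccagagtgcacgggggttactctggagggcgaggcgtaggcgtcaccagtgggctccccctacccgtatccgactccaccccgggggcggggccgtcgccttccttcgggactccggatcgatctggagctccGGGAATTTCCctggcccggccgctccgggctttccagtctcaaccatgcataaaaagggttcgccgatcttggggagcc
CCL20: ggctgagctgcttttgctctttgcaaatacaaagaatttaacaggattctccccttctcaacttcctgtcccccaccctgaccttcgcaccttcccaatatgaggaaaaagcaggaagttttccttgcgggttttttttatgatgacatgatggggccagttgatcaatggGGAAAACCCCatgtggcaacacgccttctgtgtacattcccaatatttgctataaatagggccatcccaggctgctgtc
In all 3 the match begins 79 bases before the gene start. Of the 24 measured members with a promoter, 9 hold the motif (37.5%), against 1.73% of all promoters and 2.04% of tested genes with a promoter. The 9 had medians of -0.71 in KYSE70 and -0.56 in KYSE450, and the 15 without it -0.17 and -0.29. Members with the motif include NFKBIA and NFKB1, and the list was in part drawn from known target genes, so neither the share nor the split is independent of how the list was made.

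Genes of the integrated stress response stood lower in KYSE450 throughout. In this response kinases that sense amino acid loss or stress slow translation through the initiation factor eIF2, and the transcription factor ATF4 then turns on amino acid supply and stress genes. All 39 listed genes were measured and 39 of 39 stood lower in KYSE450, with a median of -0.65, while KYSE70 had 22 lower and 17 higher and a median of -0.12. Without the GC and length trends the medians were -0.65 and -0.01. Of the 39, 10 stood at least 2-fold lower in KYSE450 (25.6%, against 0.373% of all genes) and 3 in KYSE70 (7.69%, against 3.72%). FGF21 and GDF15, given above, were the 2 that limma called. ATF4 itself stood at 287 to 188 and 325 to 206 FPKM (KYSE70 first, adjusted p 0.475), lower in both lines. TRIB3, a pseudokinase gene that ATF4 turns on, stood at 202 to 225 and 157 to 41.7 FPKM, CHAC1, which degrades glutathione, at 33.4 to 35.4 and 47.6 to 13.8 FPKM, and ATF3 at 54.996 to 55.1 and 31.8 to 11.4 FPKM. For these 3 the KYSE70 libraries were close to each other and the KYSE450 knockdown library was the lowest of the 4. STC2, a secreted glycoprotein gene, went from 254 to 87.4 FPKM in KYSE450 and was near absent in KYSE70. ASNS, asparagine synthetase, stood higher in KYSE70 and lower in KYSE450 (209 to 239 and 314 to 194 FPKM). The plasmid controls held TRIB3 at 62.2 and 11.6 FPKM and CHAC1 at 5.67 and 2.24 FPKM, the latter below all 4 lentiviral libraries.

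The promoters of FGF21 and CHAC1 are shown as a gene lower in both lines and a gene lower in KYSE450 alone, each with 1 match to the amino acid response motif TGATGNAA, searched on both strands (chr19:48755274-48755523, plus strand, and chr15:40953221-40953470, plus strand, RefSeq on GRCh38.p14, motif in capitals):
FGF21: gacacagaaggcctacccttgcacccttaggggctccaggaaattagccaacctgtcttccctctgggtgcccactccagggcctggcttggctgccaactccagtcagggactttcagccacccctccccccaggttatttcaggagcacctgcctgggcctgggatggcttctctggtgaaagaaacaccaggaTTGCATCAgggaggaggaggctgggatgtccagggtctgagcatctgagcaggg
CHAC1: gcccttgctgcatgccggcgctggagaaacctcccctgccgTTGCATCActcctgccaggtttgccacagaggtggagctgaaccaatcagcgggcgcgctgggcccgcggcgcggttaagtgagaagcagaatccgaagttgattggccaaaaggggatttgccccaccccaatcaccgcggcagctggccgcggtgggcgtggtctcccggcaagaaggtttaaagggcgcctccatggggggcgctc
The match begins 54 bases before the start of FGF21 and 209 before that of CHAC1. Of 34 measured members with a promoter, 5 hold the motif (14.7%, against 3.19% of all promoters and 1.33% of tested genes with a promoter). They are AARS, CHAC1, ASNS, FGF21 and ATF3. The medians of these 5 were 0.00 in KYSE70 and -1.40 in KYSE450, beside -0.18 and -0.65 for the 29 without it. The list holds genes known to belong to this response, so neither the share nor the split is independent of how the list was made.

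Chaperones of the endoplasmic reticulum, which another branch of the stress pathways controls, parted between the lines. HERPUD1, a factor of protein degradation at that membrane, stood at 39.1 to 190.03 and 90.4 to 55.6 FPKM (KYSE70 first). HSPA5, the main chaperone of the compartment, stood at 149 to 386 and 441 to 334 FPKM. Of the 24 listed, 14 stood higher in KYSE70 and 20 lower in KYSE450, with medians of 0.17 and -0.14 (0.05 and -0.18 without the GC and length trends), and none was called.

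Collagens and matricellular genes, which build the matrix around cells, stood higher in KYSE450. Of 25 measured, 23 did so, with a median of 0.43, against 15 and 0.03 in KYSE70 (0.19 there without the GC and length trends). COL5A1 rose from 6.54 to 21.6 FPKM in KYSE70 and 0.297 to 2.11 in KYSE450 (fitted change 1.42, SE 0.27, adjusted p 0.00645) and COL3A1 from 3.801 to 21.9 FPKM in KYSE70 and 0.617 to 2.005 in KYSE450 (fitted change 1.57, SE 0.29, adjusted p 0.0052), both chains of fibrillar collagens. The plasmid controls held COL5A1 at 2.37 and 4.08 FPKM and COL3A1 at 9.13 and 3.81 FPKM (KYSE70 first). In KYSE450 both levels lay above the knockdown library. In KYSE70 COL5A1 lay below the lentiviral control, and COL3A1 lay between lentiviral control and knockdown. TNC fell, as given above. THBS1, the gene of thrombospondin 1, stood at 277 to 437 and 49.5 to 155 FPKM (KYSE70 first, adjusted p 0.0586), higher in both lines. COL6A1 stood at 17.7 to 18.1 and 5.31 to 12.8 FPKM, apart in KYSE450 alone. COL3A1 is also 1 of the 10 fibroblast markers, of which COL1A1, the most abundant, ranged from 29.2 to 37.0 FPKM over the 4 libraries and the summed marker level was 33.7 and 52.3 FPKM in the KYSE70 control and knockdown and 32.3 and 39.8 FPKM in those of KYSE450. The part of other cells in these levels was not tested.

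MMP10, the stromelysin 2 gene, stood higher in KYSE450 alone, from 15.99 to 56.95 FPKM, a 3.56-fold (3.27 to 3.89) difference. In KYSE70 it stood at 0.452 and 0.4201 FPKM, and the fit over both lines gave 0.87 (SE 0.31, adjusted p 0.321). The plasmid controls held MMP10 at 0.597 and 31.4 FPKM, so the KYSE450 level there lay between those of the lentiviral control and knockdown. MMP3 was at 0 to 0.237 and 0.10998 to 0.107 FPKM (KYSE70 first), below the filter, and was not tested. MMP1, a collagenase gene, stood at 0.0767 to 0.0192 and 0.962 to 3.02 FPKM. Of the inhibitors, TIMP3 stood higher in both lines (15.1 to 55.2 and 0.2001 to 0.624 FPKM, adjusted p 0.0844). TIMP1 stood lower in KYSE70 and higher in KYSE450 (25.5 to 15.3 and 3.405 to 5.79 FPKM). None of the 21 measured of 33 listed protease and inhibitor genes was called. NSUN2 stood at 106 to 71.5 and 149 to 140.4 FPKM, with a fitted change of -0.32 (SE 0.25, adjusted p 0.847), and BPTF at 28.02 to 29.4 and 44.7 to 48.6 FPKM, with 0.09 (SE 0.25, adjusted p 0.975). NSUN2 was lower with knockdown in KYSE70, and its KYSE450 libraries lay close together, as did those of BPTF within each line. Among the other RNA cytosine methylation genes the readers ALYREF (98.7 to 32.7 and 189.7 to 196 FPKM) and YBX1 (1691 to 721 and 1283 to 1242 FPKM) stood at least 2-fold lower in KYSE70 and level in KYSE450.

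Differences in KYSE70 alone, at least 2-fold there and within 1.2-fold in KYSE450, numbered 112 higher (0.774%) and 361 lower (2.49%). Genes of the translation and respiration machinery stood lower as groups in that line. Of the 79 cytosolic ribosomal protein genes, 73 stood lower in KYSE70 and 65 higher in KYSE450, with medians of -0.71 and 0.11, and 27 (34.2%, against 3.72%) stood at least 2-fold lower in KYSE70. RPS29 stood at 789.7 to 128 and 922 to 1219 FPKM (KYSE70 first), RPL27 at 756 to 198 and 1961 to 1832 FPKM and RPL39 at 968 to 274 and 789 to 852 FPKM. The KYSE70 knockdown library was the low one each time. Of the 67 nuclear genes of oxidative phosphorylation, 59 stood lower in KYSE70, with medians of -0.65 and 0.01, and 21 (31.3%) at least 2-fold. The complex I subunit gene NDUFA1 stood at 121 to 20.8 and 100.4 to 111 FPKM and COX8A, of cytochrome c oxidase, at 86.6 to 21.6 and 116 to 118 FPKM. Of the 42 measured mitochondrial ribosomal protein genes, 37 stood lower in KYSE70 (medians -0.67 and -0.05), and 11 (26.2%) at least 2-fold. With the GC and length trends removed the KYSE70 medians of these 3 lists were -0.46, -0.47 and -0.48. None of their members was called by limma.

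The same library's change followed GC content and length across the genome. In quintiles of genes from the lowest to the highest GC content, the median change in KYSE70 went from 0.28 through 0.15, 0.00 and -0.18 to -0.33, while the KYSE450 medians stayed between -0.00266 and 0.0286. Over quintiles of length, shortest to longest, it went from -0.18 to 0.15 in KYSE70. The 361 genes lower in KYSE70 alone had a median GC content of 56.4% and a median length of 946 bases, and the 112 higher ones 42.6% and 1649 bases, beside 48.5% and 1443 bases over all genes tested. Lengths are those the FPKM values imply. Without the trends, the count in KYSE70 alone was 286 in place of 473, and 37.41% of them were higher in place of 23.68%.

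**Figure D3:**
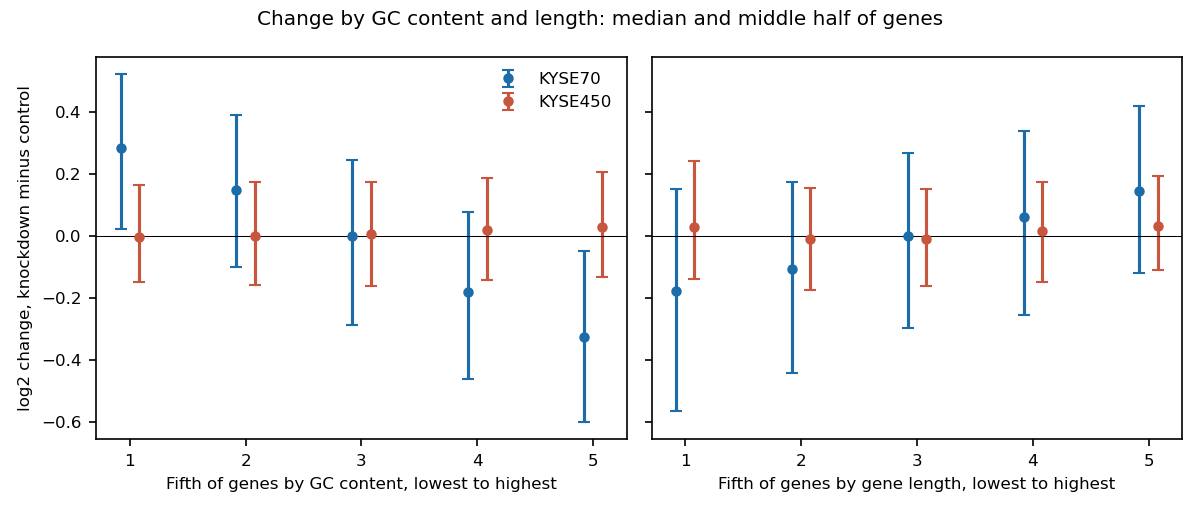
Median change with knockdown (points) and the middle 50% of genes (bars), as differences of log2(FPKM + 1), by quintiles of GC content (left) and of gene length (right), for KYSE70 and KYSE450. The KYSE70 medians fall from 0.28 to -0.33 across the GC quintiles, and the KYSE450 medians lie between -0.00266 and 0.0286.

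By the naming rule the genes farthest apart in KYSE70 alone were of mixed function. Higher were PLEKHH2 (6.101 to 29.4 and 8.75 to 10.3 FPKM, KYSE70 first), the nuclear receptor gene NR2F1 (2.56 to 12.4 and 1.48 to 1.93 FPKM), the mitochondrial carrier gene SLC25A27 (3.08 to 13.3 and 6.48 to 7.93 FPKM), the zinc finger gene ZFX (31.5 to 109.7 and 11.7 to 13.1 FPKM) and RP11-340F14.5 and the pseudogene RP11-632C17__A.1. Lower were C8orf4 (59.4 to 6.09 and 4.62 to 5.11 FPKM), the GTPase gene GIMAP4 (6.54 to 0.0675 and 0.0235 to 0.060998 FPKM), LSM7, a subunit of the spliceosome (213 to 31.1 and 180.1 to 184 FPKM), CNN1, a smooth muscle calponin (7.38 to 0.413 and 0.287 to 0.187 FPKM), FLG, the cornified layer protein filaggrin (20.6 to 2.81 and 0.118 to 0.247 FPKM), and the noncoding RP11-346D6.6. GIMAP4, CNN1, FLG, RP11-340F14.5 (0.0552 and 0 FPKM) and RP11-632C17__A.1 (0.278 and 0.505 FPKM) were hardly detected in KYSE450, so that line could show little for them. The 1.2-fold limit applies to log2(FPKM + 1), and by reads NR2F1 stood 1.30-fold (0.941 to 1.79) higher in KYSE450. The basal keratin gene KRT14 stood at 3.57 to 38.3 and 921 to 708 FPKM and the transcription factor gene SOX2 at 309.6 to 97.2 and 177 to 196 FPKM, each apart in KYSE70 and in the other direction, more weakly, in KYSE450. NRP1, a semaphorin coreceptor, went from 2.096 to 10.3 FPKM in KYSE70, and its relative NRP2 from 13.2 to 2.799 FPKM, with KYSE450 at 10.4 and 14.5 and at 42.1 and 44.8 FPKM.

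The mitochondrial genome encodes 13 proteins of the respiratory chain and is transcribed as long precursors. MT-CYB, cytochrome b, fell from 131 to 58.2 FPKM in KYSE70 and 136 to 55.3 in KYSE450 (fitted change -1.22, SE 0.25, adjusted p 0.0171). Its controls were nearly equal, as were its knockdown libraries. Nearby MT-ND5 stood at 91.4 to 44.5 and 165 to 96.2 FPKM (KYSE70 first, adjusted p 0.123), and MT-ND6, encoded on the opposite strand, at 144 to 64.2 and 346 to 197 FPKM (0.0936). These 3, the last in genome order, were the members at least 1.5-fold lower in both lines. With MT-ATP8 they were also the 4 least abundant, and since the strand setting of the counting is not known here, MT-ND6 reads cannot be told apart from antisense reads. The other 10 did not share a direction. MT-CO1 stood at 8527 to 13070.00 and 6110.5 to 5561 FPKM and MT-ND4L at 1882 to 5649 and 1411 to 1422 FPKM. In KYSE70, 9 of 13 stood higher and in KYSE450 11 of 13 lower, with medians of 0.33 and -0.25. With quantile normalization the KYSE70 median was 0.00 and the KYSE450 median -0.44.

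**Figure D4:**
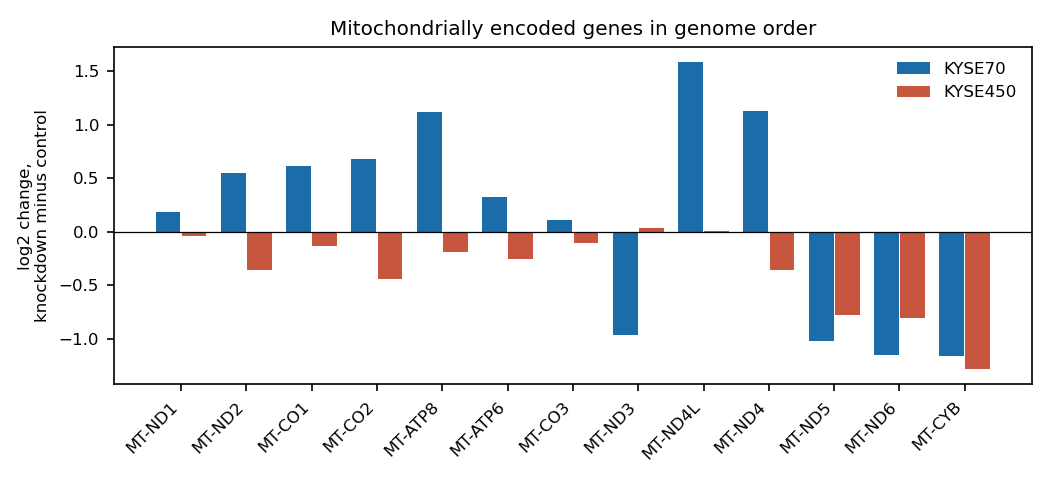
Change with knockdown of the 13 mitochondrially encoded protein genes in genome order, as differences of log2(FPKM + 1), with 1 bar per line. MT-ND5, MT-ND6 and MT-CYB at the right end lie below 0 in both lines, from -1.02 to -1.16 in KYSE70 and from -0.77 to -1.28 in KYSE450.

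Differences in KYSE450 alone, at least 2-fold there and within 1.2-fold in KYSE70, were fewer, 28 higher (0.193%) and 18 lower (0.124%). Their median GC contents were 52.6% and 47.9%. Interferon genes and MMP10, given above, were among the higher ones. EDN1, the gene of endothelin 1, went from 2.55 to 12.97 FPKM in KYSE450, 5.09-fold (4.34 to 5.98) higher, and stood at 2.38 and 2.12 FPKM in KYSE70, whereas EDN2 rose in both. DAPL1 stood at 8.09 to 7.43 and 2.33 to 14.8 FPKM (KYSE70 first), its KYSE450 control alone being low. The aldo-keto reductase gene AKR1B10 went from 1.01 to 5.72 FPKM in KYSE450, while KYSE70 held 1727 and 1744 FPKM. The 6 lower genes named by the rule were CCL20, EREG, TRIB3, CHAC1, STC2 and ATF3, all given above: 1 chemokine, 1 EGF receptor ligand and 4 stress response genes. EREG stood 4.18-fold (3.89 to 4.49) lower and TRIB3 3.76-fold (3.57 to 3.96) lower in KYSE450.

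Some genes stood apart in opposite directions, at least 1.5-fold in each line. KYSE70 higher with KYSE450 lower was found for 17 genes (0.117%), and the reverse for 48 (0.332%). Of the 48, 45.83% are protein coding against 83.45% of all genes tested, and their median length was 724.5 bases. The widest contrast was TXNIP, the thioredoxin-interacting protein that cells raise when glucose is plentiful, which went from 442 to 99.6 FPKM in KYSE70 and 13.1 to 137 in KYSE450. It stood 4.44-fold (4.29 to 4.59) lower in one line and 10.4-fold (9.65 to 11.2) higher in the other. Its relative ARRDC4, also an alpha-arrestin, went the same way, from 29.9 to 12.5 FPKM in KYSE70 and 5.22 to 23.3 in KYSE450. The plasmid controls held TXNIP at 55.2 and 258 FPKM, which in KYSE70 was below both lentiviral libraries and in KYSE450 above both. The TXNIP promoter is shown because it holds a match to the carbohydrate response motif, CACGNG repeated after any 5 bases, on either strand, which 16 of 27305 promoters (0.0586%) do (chr1:145996580-145996829, minus strand, RefSeq on GRCh38.p14, motif in capitals):
TXNIP: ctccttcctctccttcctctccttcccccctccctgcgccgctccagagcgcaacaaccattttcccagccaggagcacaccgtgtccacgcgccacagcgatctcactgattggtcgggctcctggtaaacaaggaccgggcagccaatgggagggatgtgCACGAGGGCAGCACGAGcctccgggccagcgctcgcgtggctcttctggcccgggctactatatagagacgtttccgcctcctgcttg
The match begins 88 bases before the gene start. No match lies in the ARRDC4 window, and this search was added after the values were seen.

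In the reverse orientation, KYSE70 higher and KYSE450 lower, the rule named 4 genes. TSC22D3, a glucocorticoid-induced leucine zipper gene, stood at 82.6 to 188 and 61.4 to 16.7 FPKM (KYSE70 first), and PHLDA1 at 41.1 to 88.8 and 80.2 to 30.9 FPKM. DDIT3, the stress factor CHOP, stood at 26.2 to 53.4 and 64.1 to 20.1 FPKM and the transcription factor NFIL3 at 8.32 to 14.4 and 11.5 to 6.1000 FPKM. In each case the KYSE70 control and the KYSE450 knockdown library were the lower of their pair. The rule also named 2 more genes of the TXNIP orientation. The noncoding RN7SL1, the RNA of the signal recognition particle, stood at 1089.7 to 216 and 877 to 1955 FPKM. It has many near-identical copies in the genome, so its reads are uncertain. The unannotated AC006014.1 stood at 9.69 to 0.969 and 2.699 to 11.8 FPKM.

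Squamous lineage genes were described by list. Of 25 measured genes of basal squamous identity, 11 stood higher in both lines and 0 lower, where 27.2% and 25.7% of all genes did, with medians of 0.29 and 0.18. KRT15 stood at 13.1 to 19.5 and 185 to 491 FPKM (KYSE70 first, adjusted p 0.0959). The 17 measured differentiation genes had medians of -0.48 and -0.09 (-0.22 and -0.13 without the GC and length trends), with 8 lower in both lines and 2 higher. Those 2 were the mucosal keratin genes KRT4 (2.89 to 7.12 and 1.36 to 3.98 FPKM, 0.0692) and KRT13 (49.2 to 134 and 2138 to 3796 FPKM, 0.0824), partners of the suprabasal esophageal epithelium. KRT13 was far more abundant in KYSE450 than in KYSE70. No gene of either list was called.

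Targets of p53 stood on both sides. At 1.5-fold or more in both lines 3 of the 28 measured stood higher (10.7%, against 0.808%) and 3 lower (10.7%, against 0.47%). MDM2, which degrades p53, stood at 23.1 to 43.5 and 23.02 to 39.9 FPKM (KYSE70 first, adjusted p 0.176), and the kinase gene PLK2 at 41.3 to 80.4 and 25.8 to 49.1 FPKM (0.0959). GADD45A, a growth arrest gene, stood at 336 to 154 and 88.4 to 50.8 FPKM (0.0959), BBC3, the apoptosis gene PUMA, at 7.32 to 3.87 and 11.1 to 5.98 FPKM (0.286), and GDF15 was the 1 called. The hypoxia gene NDRG1 stood higher in both lines (196 to 462 and 103 to 195 FPKM, 0.0692), while VEGFA stood lower in KYSE450 (150.4 to 136 and 166 to 63.6 FPKM). INSR, the insulin receptor gene, stood at 13.98 to 28.9 and 8.197 to 17.4 FPKM (0.0824), close to 2-fold higher in each line. Of the 32 measured TGF-beta and BMP genes 14 stood higher in both lines and 6 lower, where 27.2% and 25.7% of all genes did. Among the 14 was the receptor TGFBR2 (20.4 to 37.8 and 7.67 to 12.4 FPKM), and the 1 called of the list was FST.

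**Figure D5:**
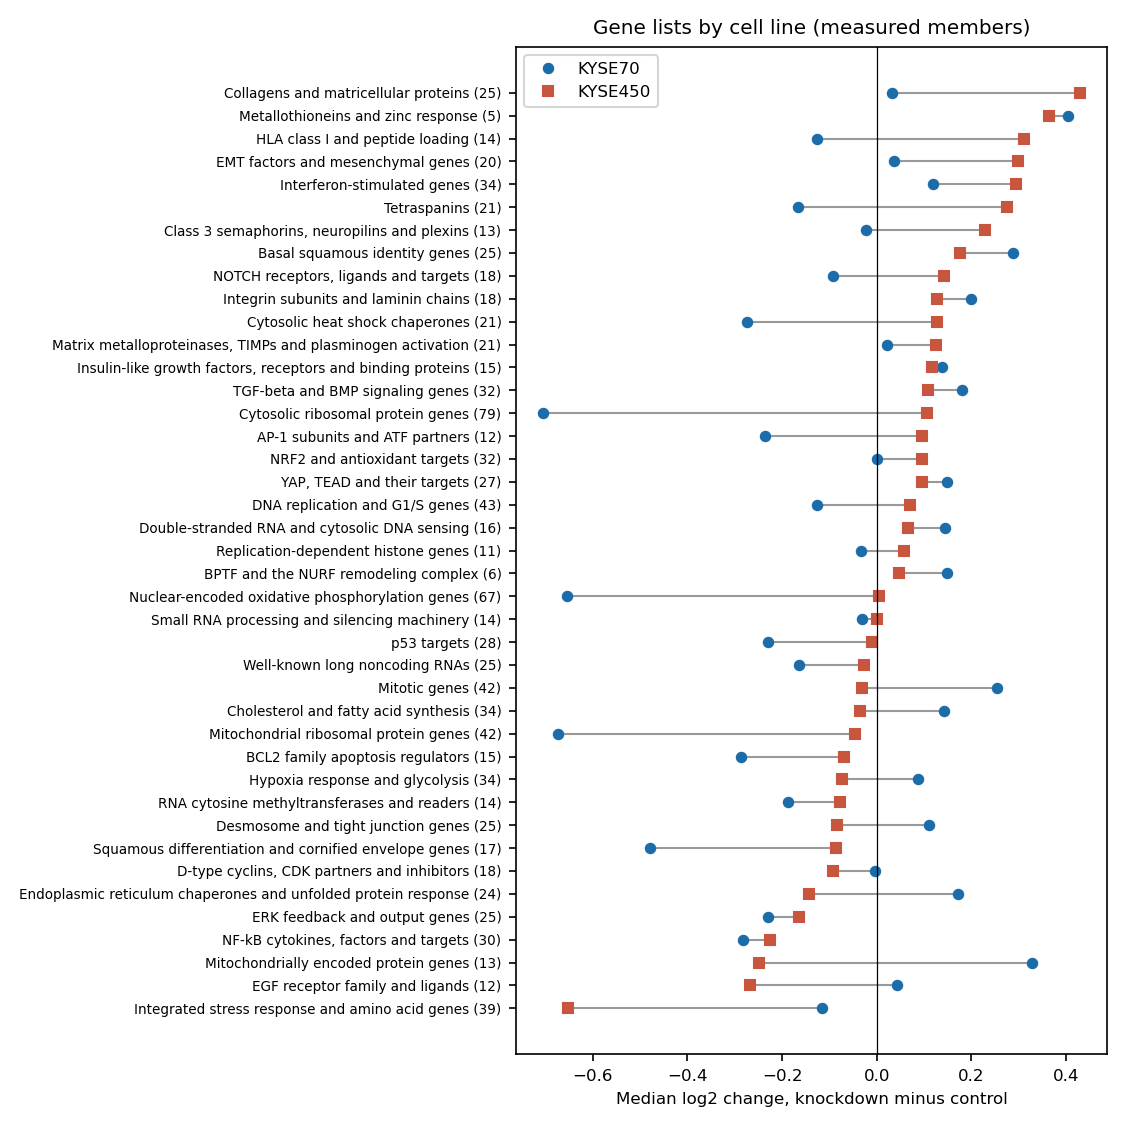
Median change with knockdown of each gene list with at least 5 members measured, as differences of log2(FPKM + 1), with circles for KYSE70, squares for KYSE450 and the number of members measured in brackets. The ribosomal protein list lies at -0.71 and 0.11, the integrated stress response list at -0.12 and -0.65, and the NF-kB list at -0.28 and -0.22.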

How the data were processed

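RNA sequencing of total RNA gave 1 deposited table per library. TopHat2 2.0.9, HTSeq 0.6.1 and build hg19 appear in the submitters' processing notes, without their roles. No label names the unit. The deposited values behave as FPKM made by the authors: in all 30872 genes detected in at least 2 libraries they are whole multiples of a step per gene once each library is scaled, with a tolerance of 0.02 reads. Genes with a mean of at least 1 FPKM in the 4 libraries were fitted as log2(FPKM + 1) with limma 3.58.1 (trend) in R 4.3.3, with knockdown and cell line as terms, 1 residual degree of freedom, a prior of 32.06, two-sided tests and Benjamini-Hochberg adjustment over all genes. The labels pair the libraries by cell line, and deviations from the group means correlated at 0.8966 within a line. With 1 library per line and group this value is the same in both lines by construction. It shows that the lines differ and cannot show that cultures were paired. Within a line, genes were described by folds on log2(FPKM + 1), of at least 2, 1.5 or 1.2, and by exact binomial intervals on the recovered reads, which cover counting error only.

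Of the listed identifiers, 45342 occur in GENCODE 29 on GRCh38, used for gene type and GC content. Promoters are 250 bases from RefSeq on GRCh38.p14, and 10542 tested genes matched one. No gene coordinates of hg19 are given. The members, the 42 gene lists and the 5 marker lists were chosen with earlier results of these data known. The rule names up to 15 called genes per direction, up to 6 genes at 5 FPKM or more per direction and line alone, up to 4 per opposite orientation, up to 4 list members by p, and NSUN2, BPTF, MMP3 and MMP10. A gene of the protease list is not reported here. All other genes named, such as GPC3, HSPA5, CXCL1, CXCL2, CXCL3, EGFR, TGFA, NRG1, ERRFI1, ATF4, ASNS, IFI6, BST2, ISG15, NFKBIA, COL6A1, MMP1 and TIMP1, were chosen after their values were seen.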

Additional observations from a re-analysis of the deposited data

Results flagged for a closer look

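Opposite directions in the lines drew attention to 8 genes and 7 gene lists, and with 1 library per group and line none of these differences was tested. In log2 change, KYSE70 first, TSC22D3 stood at 1.17 and -1.82, PHLDA1 at 1.10 and -1.35, DDIT3 at 1.001 and -1.63, and NFIL3 at 0.73 and -0.82. The reverse held for TXNIP at -2.14 and 3.28, AC006014.1 at -2.44 and 1.79, ARRDC4 at -1.20 and 1.97, and RN7SL1 at -2.33 and 1.15.

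Among list medians, KYSE70 first, the endoplasmic reticulum chaperones stood at 0.17 and -0.14, the cytosolic ribosomal protein genes at -0.71 and 0.11, and the mitochondrially encoded genes at 0.33 and -0.25. The endothelins, their receptors and converting enzymes stood at -0.31 and 0.98 with only 4 members measured, the tetraspanins at -0.17 and 0.27, the HLA class I and peptide loading genes at -0.13 and 0.31, and the cytosolic heat shock chaperones at -0.27 and 0.13. With the GC and length trends removed, the KYSE70 medians of the tetraspanins and the HLA class I genes were 0.11 and 0.06, so these 2 lists no longer parted in sign. That of the heat shock chaperones was -0.08.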

How the results depend on the processing

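The 38 calls depended on the fit. No replicate block, all 8 libraries in 1 fit, removal of the GC and length trends, and no filter on low values each gave 0 calls, with 13, 1801, 1009 and 1234 genes at an unadjusted p under 0.05. A mean of at least 5 gave 134 calls, quantile normalization 183, voom on the recovered reads 120 and an adjusted p threshold of 0.1 gave 108, of which 32, 38, 33 and 38 were among the 38. A pseudocount of 0.1 gave 38 calls, 34 of them shared, median-ratio scaling 35, no trend 38 and a robust prior 30. Leaving out each library in turn, in the fit of all 8 libraries, gave 452 to 4754 calls: 452 and 465 without the KYSE70 knockdown or control library, 31 of the 38 among them in each case, and 4754 and 4752 without those of KYSE450, with all 38. The pair that remains is there assumed to vary like the plasmid pairs. The called genes kept their direction under the alternatives run for single genes, and the cause of the lost calls was not tested.

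Counts by fold moved too. With a pseudocount of 0.1, genes at least 2-fold apart numbered 1370 in KYSE70 (795 as reported) and 398 in KYSE450 (136), those 1.5-fold apart the same way 407 (185), those in KYSE450 alone 102 (46) and those in opposite directions 224 (65). A mean of at least 5 left 29 in KYSE450 alone. Without the GC and length trends there were 515 in KYSE70, 286 in KYSE70 alone (473) and 42 in opposite directions. The share that was higher then went from 32.2% to 47.38% in KYSE70 and from 23.68% to 37.41% in KYSE70 alone, and that of KYSE70 higher among the opposite genes from 26.15% to 50%, or to 49.18% with quantile normalization. With 1 library per group and line, depth limits the low genes: counting intervals are given beside the folds and cover no variation between cultures.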

Other observations

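MALAT1, an abundant nuclear long noncoding RNA, stood at 238 to 579 and 195 to 236 FPKM (KYSE70 first, control to knockdown) and NEAT1, the scaffold of nuclear paraspeckles, at 78.1 to 116 and 158 to 228 FPKM, both higher in each line and not called (adjusted p 0.337 and 0.562 in limma). The metallothionein gene MT2A, which binds zinc and copper, stood at 15.3 to 24.3 and 18.5 to 39.001 FPKM (0.193), also higher in each line. CCND2 stood at 1.17 to 6.58 and 124 to 97.5 FPKM and CDKN1C, a CDK inhibitor gene, at 0.5097 to 1.58 and 1.57 to 3.404 FPKM, beside the fall of CCND3. IGFBP3 stood at 1250.2 to 3127 and 60.97 to 75.8 FPKM, higher in KYSE70 mainly. Of 42 mitotic genes, 30 stood higher in KYSE70 and 19 in KYSE450, with medians of 0.25 and -0.03, and of 43 replication genes 15 and 31 did, with medians of -0.13 and 0.07. With the GC and length trends removed the KYSE70 medians were 0.10 and -0.03.

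Of the apoptosis regulators BAX stood at 151 to 59.7 and 96.6 to 86.7 FPKM and BIK at 9.24 to 5.396 and 4.06 to 2.37 FPKM. BIK was at least 1.5-fold lower in both lines, whereas BAX was at least 2-fold lower in KYSE70 and within 1.2-fold in KYSE450. Of 14 measured genes of small RNA processing and silencing 4 stood higher in both lines and 4 lower, where 27.2% and 25.7% of all genes did, with AGO2, the Argonaute that cuts matched targets, at 76.4 to 49.6 and 40.8 to 37.2 FPKM and DICER1 at 30.01 to 42.5 and 22.2 to 25.6 FPKM, and none was called.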
